A study of Mus musculus with 4 samples.

Results

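The 44 genes described here encode the proteins that license, unwind and copy DNA and the enzymes that supply its deoxynucleotide building blocks. They were chosen by name from the roles of their proteins, with earlier results of these data known. All 44 are present among the 14934 genes of the deposited count table. The series compared CD8 T cells sorted by flow cytometry from mouse hepatocellular carcinoma, with JAML at the cell surface (JAML-positive) or without it (JAML-negative). JAML is an adhesion receptor of the immunoglobulin superfamily. Both groups were labelled as wild type, and there were 2 libraries in each, A and B. The sources used here do not say how the tumours arose, how old the mice were, or whether A and B were separate animals or pools. The p-values therefore rest on the spread of libraries that may be technical replicates. Values of single libraries are given as JAML-negative A and B against JAML-positive A and B.

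A cell that enters S phase first loads the MCM ring onto origins with the origin recognition complex, CDC6 and CDT1. CDC45 and the GINS complex then turn the ring into an active helicase, and DNA polymerases copy both strands behind it with the sliding clamp PCNA. E2F factors and cyclin E switch on this programme, and a T cell that is activated by antigen and begins to divide is known to raise most of it. In bulk libraries, a larger share of dividing cells and more transcript per dividing cell cannot be told apart.

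The regulator best known for these genes is E2F, which binds DNA words of the form shown next. RefSeq promoters (GRCm38.p6, 250 bases before to 50 after each start) matched 37 of the 44 genes. The words TTTCCCGC, TTTCGCGC, TTTGCCGC and TTTGGCGC were searched on both strands. At least 1 of them was found for 13 of the 37 genes (35.1%), against 510 of 11728 genes with a promoter in the table (4.35%). The CCAAT box, which contains none of these words, was found for 23 of 37 (62.2%), against 42.6% of all genes. The base composition of the promoters was not compared. The E2F words lay before the start in 8 genes and only after it in 5. The 4 stretches below are those with a word before the start and no GENCODE exon within them, each of 120 bases, and the capitals mark the E2F words.

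Cdc6, chr11:98907993-98908112, plus strand: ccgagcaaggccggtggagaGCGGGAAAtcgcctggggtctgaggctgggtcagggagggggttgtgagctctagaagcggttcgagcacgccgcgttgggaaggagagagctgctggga
Mcm5, chr8:75109336-75109455, plus strand: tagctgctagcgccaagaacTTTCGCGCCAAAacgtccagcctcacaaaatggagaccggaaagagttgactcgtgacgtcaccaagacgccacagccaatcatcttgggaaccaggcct
Mcm6, chr1:128359716-128359835, minus strand: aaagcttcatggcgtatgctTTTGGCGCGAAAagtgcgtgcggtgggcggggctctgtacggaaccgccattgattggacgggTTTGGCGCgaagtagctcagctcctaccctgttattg
Pola1, chrX:93632194-93632313, minus strand: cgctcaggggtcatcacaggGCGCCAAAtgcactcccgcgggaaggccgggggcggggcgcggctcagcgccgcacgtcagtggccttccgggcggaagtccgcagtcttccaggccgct

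The runs in Mcm5 and in the first site of Mcm6 are longer because a word on each strand overlaps the other. Mcm6 carries a second site between 47 and 40 bases before its start. A match describes the letters only. The 13 genes with an E2F word had a median log2 fold change between groups of 0.46, and the 24 without one had a median of 0.47.

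Library totals ranged from 27530187 to 30569728 counts. JAML-positive A stood apart, with 11.58% of its counts from ribosomal protein genes against 7.15% to 7.97% in the other 3 libraries. Transcripts that define CD8 T cells were abundant in every library, and Cd8a was at 1069 ± 63.3 against 1048 ± 5.48 CPM (counts scaled to a common library size; JAML-negative against JAML-positive, mean ± SD, n = 2). Jaml itself was at 124 ± 9.89 and 142 ± 6.53 CPM (log2 fold change 0.20, SE 0.22, edgeR adjusted p = 0.989), and so did not pass the test.

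All 44 genes passed the filter on low counts, with 136 to 15003 counts per library and means of 15.2 to 350.0 CPM over the 4 libraries. Values were higher in JAML-positive cells for 37 of the 44 genes and lower for 7, against 50.7% of all 11563 tested genes with a higher value. The median log2 fold change was 0.53, against 0.01 over all tested genes. For 28 genes each JAML-positive library exceeded each JAML-negative one, a pattern seen in 20.3% of all genes. The reverse was seen for Rpa2 alone, and for 18.2% of all genes.

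No single gene of the 44 passed edgeR's quasi-likelihood test after adjustment over all genes (adjusted p between 0.704 and 1.0), and neither did any other gene (0.0% of those tested). At an unadjusted p under 0.05 there were 5 genes with higher values, Mcm6, Mcm7, Mcm10, Rrm2 and Tk1, where 4.28% of all genes were found, and 0 with lower values, where 2.76% were found. Without JAML-negative A that count was 3. Limma-voom also called 0 of the 44. DESeq2 called 4 of them as higher, against 3.63% of all genes it tested: Tk1 (adjusted p = 0.00396), Mcm7 (0.0103), Rrm2 (0.0149) and Mcm10 (0.0332).

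Without JAML-positive A, the library with the high ribosomal share, 35 of the 44 were higher and the median was 0.46. Without JAML-negative A the median was 0.44, but that of all genes was 0.13, so the 44 stood 0.30 above it rather than 0.52, and 33 lay above it. With trends in transcript length and GC content removed, 32 genes were higher and 12 lower, and the median was 0.31, while the median of all genes moved to -0.17. Measured against the median of all genes, 36 of the 44 lay above it in that setting and 37 without the correction.

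**Figure D1:**
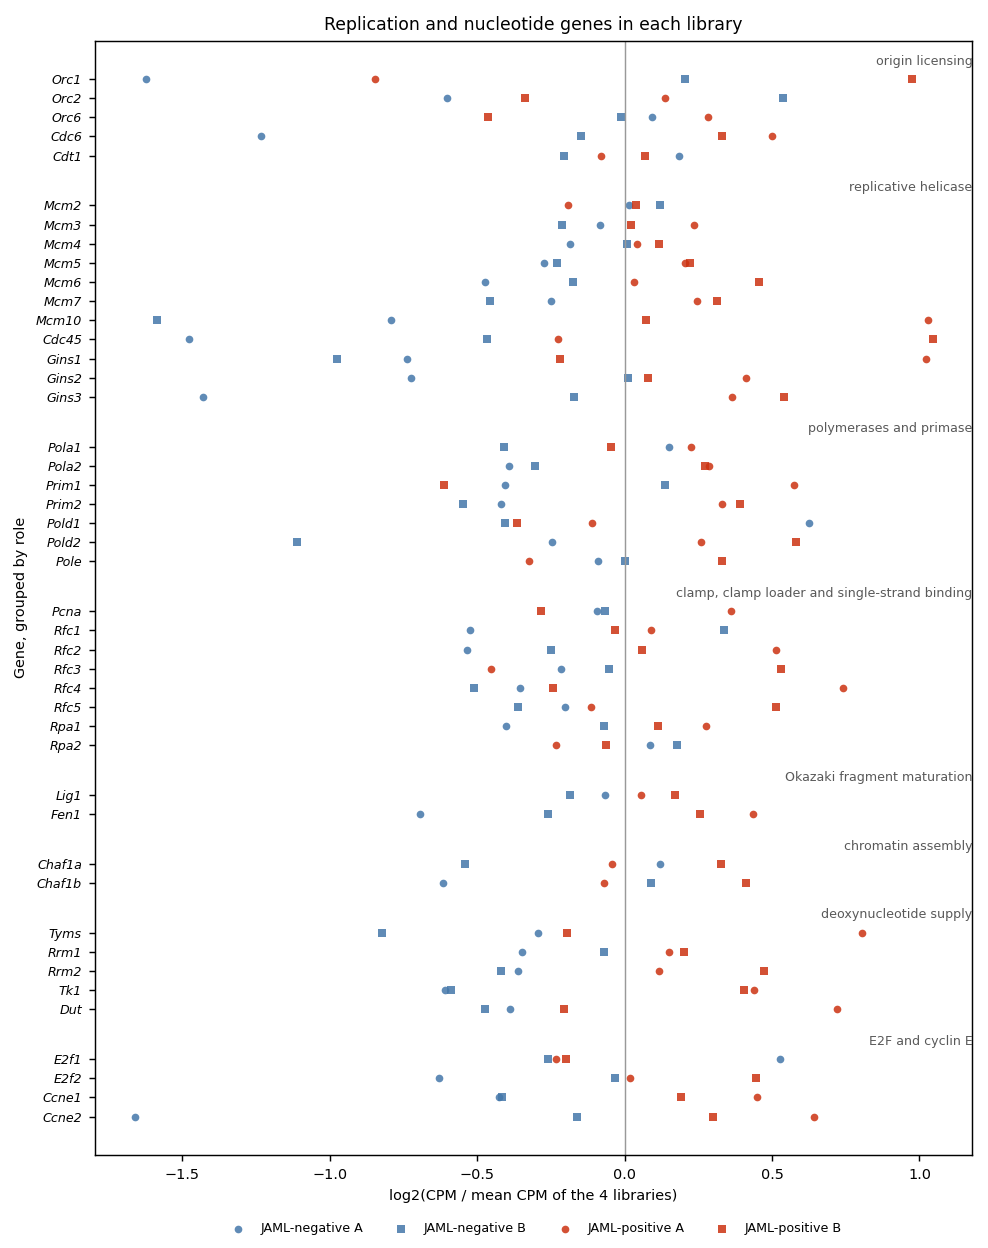
Each row is 1 gene and each symbol 1 library; the horizontal axis is the log2 ratio of its CPM to the gene's mean over the 4 libraries. Red symbols (JAML-positive) lie to the right of both blue ones (JAML-negative) in 28 rows; only Rpa2 shows the reverse, and in rows such as Orc1 the replicates of a group lie far apart.

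Genes of origin licensing showed no common direction. Of the 5 genes, 2 had higher and 3 lower values, and the groups overlapped for 4 of them. Cdc6, the ATPase that loads the MCM ring, was the exception, with 19.7 and 41.8 CPM against 65.6 and 58.4 CPM. Its difference on the log2 scale was 1.01 (SE 0.47, 95% interval -0.15 to 2.17). Cdt1, its partner in loading, differed little, at 53.1 ± 10.1 and 52.9 ± 3.83 CPM.

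Among subunits of the origin recognition complex the replicates differed more than the groups. Orc1, the ATPase subunit, was counted 233 and 806 times against 373 and 1561 times, so both B libraries lay above both A libraries. Orc2 was counted 1169 and 2511 times against 1828 and 1556 times. Both JAML-positive libraries of Orc2 lay between the JAML-negative ones, and its log2 fold change of -0.16 (SE 0.46, edgeR adjusted p = 1.0) changed sign without JAML-positive B (0.06) and without JAML-negative B (0.53). Orc6 was at 56.1 ± 2.93 and 52.9 ± 18.9 CPM. Of the exonic bases of Orc2, 29.8% lie opposite exons of Nif3l1. Of the 44 genes, 14 share 1.6% to 67.3% of their exonic bases with a gene on the other strand: Orc1, Orc2, Orc6, Mcm7, Cdc45, Gins2, Rfc2, Rfc4, Rfc5, Lig1, Fen1, Chaf1a, Tk1 and Ccne2. The strand setting of the counting is not given, so whether reads of such pairs were told apart is not known.

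Of the 11 helicase genes 10 were higher, with groups apart for those 10. In the MCM ring, 5 of the 6 subunits were higher and Mcm2 was not. Mcm6, at chr1:128331575-128359705, was counted 7126 and 8532 times against 9473 and 15003 times. That is 281 ± 40.8 against 419 ± 85.9 CPM (SD, n = 2), with JAML-positive B the highest library. On the log2 scale Mcm6 differed by 0.58 (SE 0.23, edgeR adjusted p = 0.704), and by 0.34 without JAML-positive B.

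Mcm7, at chr5:138164583-138172111, had 4385 and 3708 counts against 5794 and 7182. Its replicates lay close together in JAML-positive cells, at 224 ± 7.42 CPM, against 145 ± 14.5 CPM in JAML-negative cells. The difference on the log2 scale was 0.63 (SE 0.20, edgeR adjusted p = 0.704). Mcm5 had an even smaller spread, 128 ± 2.65 against 177 ± 1.69 CPM, and a log2 fold change of 0.46 (SE 0.20). Mcm3 (0.28, SE 0.19) and Mcm4 (0.17, SE 0.19) had smaller differences, and Mcm2 had 159 ± 8.27 against 144 ± 16.1 CPM (-0.14, SE 0.22).

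The 6 ring proteins assemble in equal numbers, so their transcript levels were also set side by side per kilobase of the longest transcript. In JAML-negative A and B the lowest subunit was Mcm5, at 37.4 and 38.6 CPM per kilobase, and the highest were Mcm3 in A (66.4) and Mcm6 in B (71.2). In JAML-positive A and B the lowest was Mcm2, at 37.9 and 44.5, and the highest Mcm3 in A (82.7) and Mcm6 in B (110.2). The highest subunit exceeded the lowest by 1.77 and 1.85 times against 2.18 and 2.48 times. Mcm2 lay above Mcm5 in both JAML-negative libraries and below it in both JAML-positive ones. These levels are a description, and the difference between subunits was not tested.

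**Figure D2:**
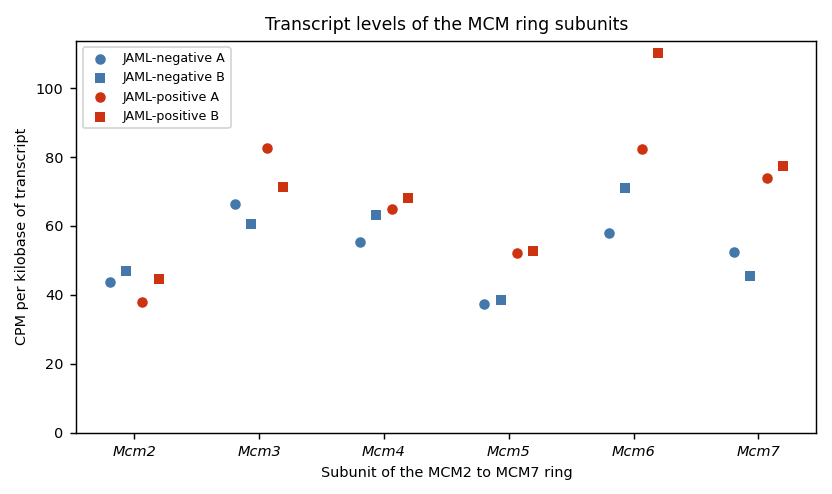
Levels of the 6 MCM ring transcripts in CPM per kilobase of the longest GENCODE transcript (vertical axis, from 0), with 1 symbol per library. Mcm2 overlaps between the groups, whereas the groups do not overlap for the other 5 subunits.

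The factors that convert the ring into a working helicase had fewer counts and wider errors, and all but Gins2 had larger fold changes than the ring subunits. Mcm10, which acts in helicase activation and lies at chr2:4990724-5012791, was counted 384 and 216 times against 1269 and 774 times. All of its JAML-positive values exceeded the JAML-negative ones, at 36.4 ± 16.4 against 10.7 ± 4.06 CPM. Its log2 fold change of 1.76 (SE 0.61, edgeR adjusted p = 0.704) was the highest of the 44 and ranged from 1.21 to 2.21 with 1 library left out.

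Cdc45 had 11.9 and 24.0 CPM against 28.4 and 68.6 CPM (log2 fold change 1.43, SE 0.63). Of the GINS subunits, Gins1 was at 1.38 (SE 0.67), Gins2 at 0.56 (SE 0.56) and Gins3 at 1.12 (SE 0.71) on the log2 scale. For these 4 genes the groups did not overlap. However, the replicates of Cdc45 and Gins1 in JAML-positive cells differed by more than the group means did. The same held for the JAML-negative replicates of Gins2, at 17.5 ± 6.18 against 25.9 ± 4.19 CPM. Of the exonic bases of Gins2, 67.3% lie opposite exons of Gse1, whose own log2 fold change was -0.64 (SE 0.36).

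Polymerase and primase genes were higher in 6 of 7 cases, and the groups were apart for 3 of them. Pola1, the catalytic subunit of polymerase alpha, was the most abundant, with 2218 and 1467 counts against 2187 and 2145. The groups overlapped, and its log2 fold change of 0.20 (SE 0.33, edgeR adjusted p = 1.0) was -0.05 without JAML-negative B. Its partner Pola2 separated the groups with small spread, 35.7 ± 1.54 against 55.1 ± 0.455 CPM (0.63, SE 0.35). The same held for the large primase subunit Prim2, 29.3 ± 1.85 against 52.6 ± 1.58 CPM (0.84, SE 0.37), but not for the small subunit Prim1 (0.21, SE 0.51).

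The 2 listed subunits of polymerase delta had values in opposite directions. Pold1, the catalytic subunit, was counted 2091 and 997 times against 1175 and 1164 times. Only JAML-negative A was high, and the log2 fold change of -0.43 (SE 0.46, edgeR adjusted p = 0.980) was 0.17 without it. The accessory subunit Pold2 was at 25.8 and 14.2 CPM against 36.7 and 45.8 CPM (1.04, SE 0.50). Pole, the catalytic subunit of polymerase epsilon, was at 66.9 ± 2.97 against 70.9 ± 22.4 CPM.

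The sliding clamp gene Pcna, a common marker of proliferation, did not separate the groups. It was counted 9252 and 9188 times against 11856 and 8969 times. JAML-positive A was the highest library and JAML-positive B the lowest. Its log2 fold change of 0.15 (SE 0.25, edgeR adjusted p = 1.0) was -0.20 without JAML-positive A.

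In the clamp loader, which opens PCNA and closes it around DNA, all 5 subunits had higher values and the groups were apart for Rfc2, Rfc4 and Rfc5. Rfc2 had the smallest error of these 3, at 64.7 ± 9.01 against 104 ± 23.1 CPM (0.69, SE 0.31). Rfc4 (0.76, SE 0.44) and Rfc5 (0.51, SE 0.40) followed, and the large subunit Rfc1 (0.06, SE 0.34) and Rfc3 (0.25, SE 0.53) overlapped. The subunits of the single-strand binding protein RPA differed in sign. Rpa1 was at 219 ± 35.5 against 294 ± 23.5 CPM (0.42, SE 0.21). Rpa2 had 3246 and 3371 counts against 2433 and 3237. On the CPM scale both JAML-positive libraries of Rpa2 were the lower ones, 97.8 ± 8.12 against 119 ± 5.33, with a log2 fold change of -0.28 (SE 0.24, edgeR adjusted p = 0.940).

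The enzymes that finish the lagging strand were both higher, with groups apart. Lig1, the DNA ligase that seals Okazaki fragments, had 4289 and 3842 counts against 4362 and 5595. Its difference on the log2 scale was 0.24 (SE 0.21, edgeR adjusted p = 0.941). Fen1, the nuclease that removes their flaps, had a larger value, 42.1 ± 8.88 against 73.7 ± 6.52 CPM (0.81, SE 0.34).

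Chaf1a and Chaf1b encode subunits of the chaperone that places histones on new DNA. Chaf1a was counted 2008 and 1237 times against 1677 and 2568 times. The groups overlapped for Chaf1a (0.33, SE 0.36, edgeR adjusted p = 0.990), where 52.5% of exonic bases lie opposite exons of Ubxn6 (0.52, SE 0.54), and for Chaf1b (0.41, SE 0.45). Without 1 library the value of Chaf1a ranged from 0.04 to 0.69.

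For deoxynucleotide supply all 5 genes were higher and the groups apart, with a median log2 fold change of 0.76. Tk1, the thymidine kinase that salvages thymidine in S phase, lies at chr11:117815519-117826087. It was counted 877 and 867 times against 1695 and 1962 times. Replicates were nearly equal within each group, at 31.3 ± 0.317 against 63.4 ± 0.972 CPM, a ratio of 2.03. The log2 fold change of 1.02 (SE 0.35, edgeR adjusted p = 0.704) stayed between 1.01 and 1.04 with any 1 library left out. Exons of Afmid lie opposite 1.6% of the exonic bases of Tk1, and Afmid had a lower value (-1.52, SE 0.58).

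Rrm2 encodes the small subunit of ribonucleotide reductase, which makes deoxynucleotides from ribonucleotides, and lies at chr12:24708254-24714146. Its counts were 4589 and 4296 against 5987 and 9063. With 159 ± 4.52 against 258 ± 44.8 CPM, every JAML-positive library was above every JAML-negative one (log2 fold change 0.70, SE 0.21, edgeR adjusted p = 0.704). Rrm1, the large subunit, had 6144 and 7259 counts against 8123 and 9935. Its difference was smaller (0.38, SE 0.19, edgeR adjusted p = 0.766), and 0.24 without JAML-negative A.

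Tyms, which makes thymidylate, and Dut, which removes dUTP, had their highest values in JAML-positive A. Tyms was at 40.9 and 28.4 CPM against 87.6 and 43.8 CPM (0.92, SE 0.47). Dut was counted 2984 and 2746 times against 6028 and 3753 times (0.76, SE 0.34). That library is the one with the high share of ribosomal protein counts, and without it the log2 fold changes were 0.34 for Tyms and 0.23 for Dut.

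Of the regulators, E2f2 and both cyclin E genes had higher values and E2f1 a lower one. E2f2, an activating E2F factor, had 1342 and 1980 counts against 1968 and 3132 (0.55, SE 0.35, edgeR adjusted p = 0.847). JAML-negative B and JAML-positive A differed little, at 71.9 and 74.4 CPM. The value of E2f2 was 0.28 without JAML-negative A and 0.31 without JAML-positive B. E2f1 had 867 and 489 counts against 479 and 580. Only JAML-negative A was high for E2f1, and its log2 fold change of -0.40 (SE 0.56, edgeR adjusted p = 1.0) was 0.04 without it. Ccne1 was at 23.9 ± 0.132 against 40.2 ± 5.05 CPM (0.75, SE 0.42), and Ccne2, at 9.22 ± 6.23 against 21.2 ± 3.55 CPM (1.20, SE 0.82), was the least abundant of the 44.

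**Figure D3:**
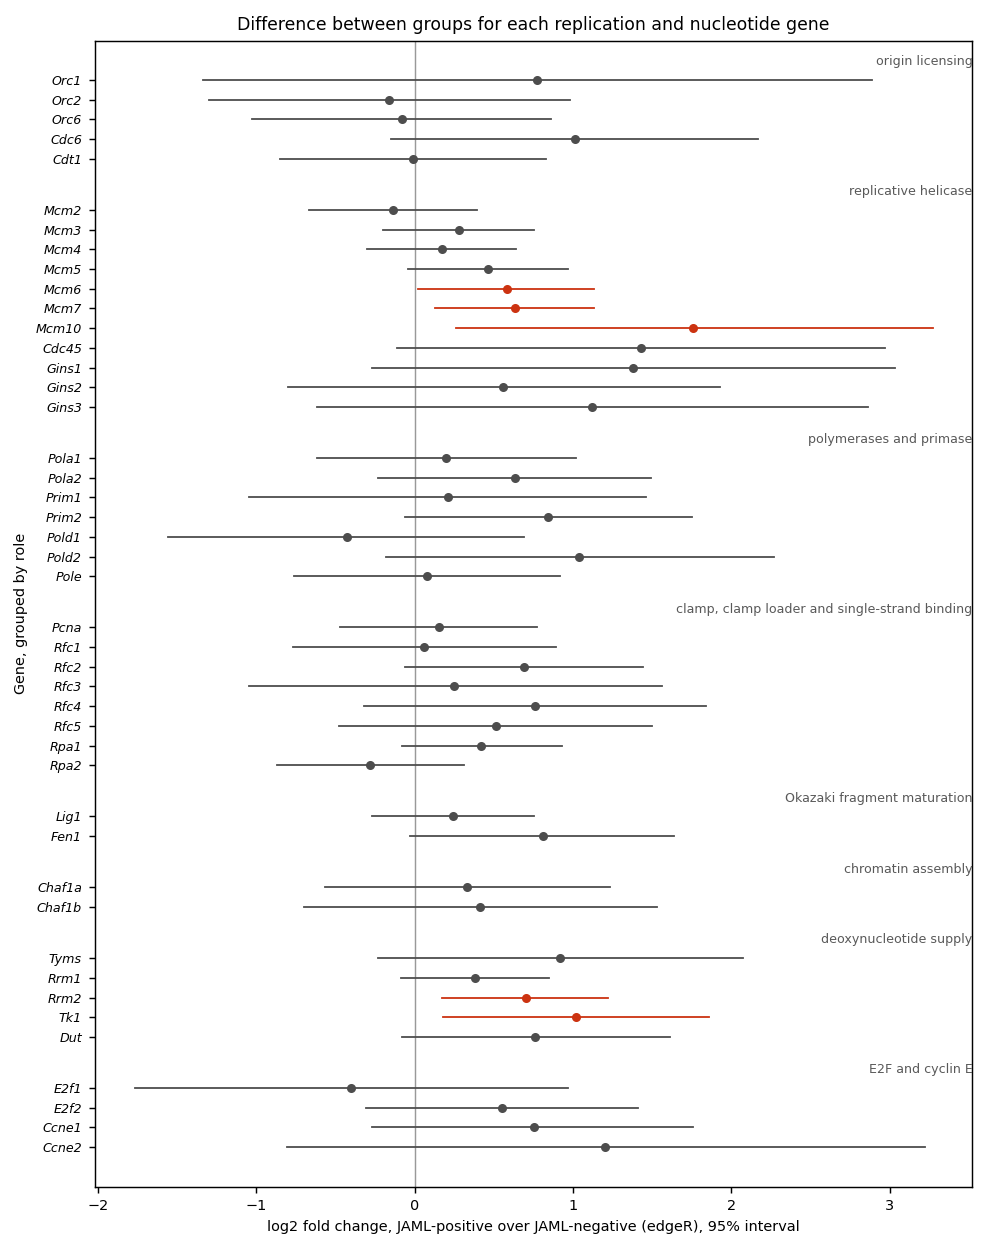
Points are edgeR log2 fold changes of JAML-positive over JAML-negative cells and lines their 95% intervals, by role. Red marks the 5 genes with an unadjusted p under 0.05, whose intervals lie above 0. The intervals of the other 39 genes, among them all licensing and polymerase genes, include 0.

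For many genes the fold change shrank when a single library was left out. Of the 28 genes with higher values and groups apart, 18 had a fold change smaller by over 1.5 times (log2 scale) when some library was left out. Beside the genes given above, these were Mcm3 (0.17), Gins1 (0.63), Rfc2 (0.45) and Rfc4 (0.19) without JAML-positive A, and Cdc45 (0.66) and Rfc5 (0.16) without JAML-positive B. Without JAML-negative A they were Cdc6 (0.56), Mcm4 (0.07), Gins2 (0.24), Gins3 (0.62), Rpa1 (0.26) and Ccne2 (0.64), and without JAML-negative B Pold2 (0.68). Of the 15 genes whose groups overlapped, 12 changed sign with some library left out, all but Mcm2, Chaf1a and Chaf1b. With 2 libraries a group, leaving out the one furthest from the other group shrinks any fold change. Where groups overlap, a change of sign is easily reached. The same counts over all tested genes were not computed, so whether 18 of 28 and 12 of 15 are unusual is not known.

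Larger fold changes went with lower abundance and larger errors. The 14 genes with a mean of at least 100 CPM had a median log2 fold change of 0.33 and a median SE of 0.21. The 19 genes under 50 CPM had a median of 0.77 and a median SE of 0.51. For 21 of the 44 genes the difference between group means exceeded the distance between replicates in both groups, and 20 of these were higher. The share of all tested genes with such a difference was not computed, so whether 21 of 44 is unusual is not known. Per library, the median of the 44 genes in log2 CPM, each centred on its mean over the 4 libraries, was -0.32 and -0.19 against 0.25 and 0.23.

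The other genes of these pathways had a smaller median difference than the 44. Of 93 listed, 91 were tested, 66 had higher and 25 lower values, and 0 passed the edgeR test after adjustment. Their median log2 fold change was 0.29, and 0.19 without JAML-positive A. Without JAML-negative A they stood 0.15 above the median of all genes rather than 0.28, and 53 rather than 65 lay above it. With length and GC trends removed, 44 were higher and 47 lower, and 66 lay above the median of all genes, which was -0.17 in that setting. Among 39 other fork and origin genes 28 were higher (median 0.24). The 3 with the smallest p were Pole3, an accessory subunit of polymerase epsilon (2.28, SE 0.74), Atad5, which unloads PCNA (1.21, SE 0.47), and the topoisomerase Top2a (0.49, SE 0.19).

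Within the E2F family, 8 of 11 other genes were higher (median 0.31). Tfdp1, a dimer partner with which most E2F factors bind DNA, was at 112 ± 9.61 against 185 ± 29.4 CPM (0.72, SE 0.23, edgeR adjusted p = 0.704). E2f6 (1.13, SE 0.57) and E2f8 (0.66, SE 0.40), which are repressors, were also higher. Of 8 tested checkpoint genes 5 were higher (median 0.23). Wee1, a kinase that restrains CDK1, was at 1.68 (SE 0.80), whereas Rad17 (-0.58, SE 0.40) and the checkpoint kinase Atr (-0.41, SE 0.31) were lower with groups apart.

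Other deoxynucleotide genes had a median of 0.52, close to that of the 44, with 7 of 10 higher. The groups were less often apart, however. They were apart with higher values for 3 of the 10 and with lower values for 2, and overlapped for 5. Among the 44 these counts were 28, 1 and 15. Dtymk, the thymidylate kinase, was at 1.34 (SE 0.67) and Nme2, a nucleoside diphosphate kinase, at 0.74 (SE 0.36) on the log2 scale. For Nme2 the groups overlapped, at 111 and 147 CPM against 286 and 146 CPM, and only JAML-positive A was high. Of 23 genes of purine, pyrimidine and one-carbon synthesis 18 were higher (median 0.32), including Atic (0.64, SE 0.23) and Ctps (1.02, SE 0.41). Impdh1, an enzyme of guanine nucleotide synthesis, went the other way, at 99.8 ± 3.48 against 49.2 ± 7.84 CPM (-1.02, SE 0.29, edgeR adjusted p = 0.704).

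Genes of mitosis, the later stage of the same cycle, had higher values in 20 of 20 cases, with a median log2 fold change of 0.70. The groups were apart for 15 of these genes and overlapped for 5. Per library their median was -0.35 and -0.37 against 0.33 in both JAML-positive libraries. Whether they differ from the replication genes was not tested.

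**Figure D4:**
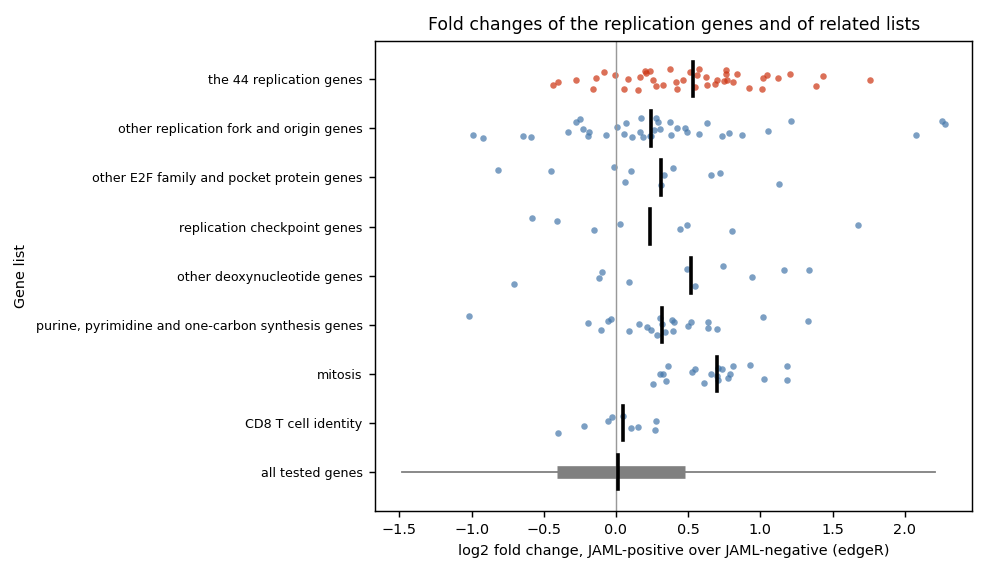
Each point is 1 gene, placed by its edgeR log2 fold change (horizontal axis), and black bars are list medians; for all tested genes the thick bar spans the quartiles and the thin line most of the range. The 44 replication genes have a median of 0.53, mitosis genes 0.70, CD8 T cell genes 0.05 and all tested genes 0.01.

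Markers of some other cells also had higher levels in the JAML-positive libraries. Of 10 tested dendritic cell and MHC class II genes 9 had higher values, with groups apart for 6 and overlapping for 3. Itgax was lower with groups apart, at 120 ± 5.97 against 68.3 ± 9.68 CPM (-0.82, SE 0.27). The 12 genes listed for these cells summed to 222 and 202 against 513 and 349 CPM. In that list Batf3, Xcr1 and Clec9a had no counts in at least 1 library. The 9 B and plasma cell genes in the table summed to 19.6 and 22.6 against 120.2 and 92.3 CPM. In a given library 2 to 5 of them, among these Cd79a and Pax5, were at 0. Of the 5 that were tested, 4 were higher, with groups apart for 3, and 1 was lower with groups apart (log2 fold change -5.08). The 10 macrophage genes summed to 87.3 and 81.4 against 201 and 167 CPM, with 7 higher and none at 0, but their median log2 fold change was 0.14 and the groups overlapped for 7 of them. The 3 globin genes of the erythroid list in the table summed to 0.0 and 0.036 against 47.4 and 16.2 CPM. Markers of CD4 and regulatory T cells summed to 263 and 248 against 258 and 337 CPM. Of these 8 genes 7 were higher (median log2 fold change of the list 0.84), with groups apart for 4. The remaining gene was lower with groups apart (-0.90). Summed levels overlapped between the groups for markers of natural killer cells (589 and 569 against 698 and 508), hepatocytes (67.0 and 32.5 against 31.9 and 40.0) and neutrophils (all under 1 CPM). CD8 T cell genes summed to 4426 and 4423 against 4567 and 4295 CPM. The part of other cells in the replication genes' values was not tested.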

How the data were processed

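RNA was sequenced from 4 libraries, 2 per group, prepared with a SMARTER kit, per the labels' protocols. The authors deposited one table of raw gene counts. Per the submitters' processing notes the genome was GRCm38 (mm10). For the aligner, counting program, strand setting and annotation: not given in the sources used here. Totals of 27530187 to 30569728 counts put a floor of 3 counts at 0.098 to 0.109 CPM. Reads carry no molecular identifiers.

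Genes were filtered with filterByExpr (minimum count 10), which left 11563, scaled with TMM factors and tested across all genes with the robust quasi-likelihood test of edgeR 4.0.16 in R 4.3.3, without covariates. P-values were adjusted by Benjamini-Hochberg over all genes with a threshold of 0.05. The SE is the size of the log2 fold change over the root of F. CPM are on the TMM scale, except for sums of markers, which use library totals. DESeq2 1.42.0, limma-voom 3.58.1, other scalings and filters, the replicate block, 1 library left out and removal of length and GC trends (loess on log2 CPM, prior count 2, 10959 genes with a GENCODE M21 transcript) were alternatives. The edgeR script was tested on simulated data with the same replicate dispersion for every gene, which does not measure its power in these data.

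The 44 genes, the other lists and the tests were chosen with earlier results of these data known. Counts per library, fold change, SE and adjusted p are given for genes with an unadjusted p under 0.05, for genes with a log2 fold change under -0.2 and for the most abundant gene of each role. In each related list the 3 genes with the smallest p are named, except for an item that is not reported here. Other genes are given by level or difference, and Cdc6, Orc1, Cdc45, Pold2, Tyms, Dut and Nme2 were given per library after their values were seen. Genes were matched to RefSeq (GRCm38.p6) by Entrez identifier.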

Additional observations from a re-analysis of the deposited data

How the results depend on the processing

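Across the alternatives, 32 to 38 of the 44 genes had higher values. DESeq2 called 4 genes where the edgeR settings and limma-voom called 0. It placed 19 at an unadjusted p under 0.05. Limma-voom and edgeR with no filter on low counts each placed 8 there, and the chosen setting 5. The share of all genes at that threshold was computed for the chosen setting alone, so the 19 and the 8 stand without it. The cause of these differences in the count was not tested. With 1 library left out that count was 3 to 5 (3 without JAML-negative A) and the median log2 fold change 0.44 to 0.64. With either JAML-negative library left out, the median of all genes moved to 0.13. The median was 0.31 with length and GC trends removed. Leaving out 1 library reversed 12 of the 15 genes that overlapped between groups. Such a fit assumes that the lone library varies like the other group. Of the 15 genes that the naming rule gives in full, 5 were reversed, with ranges of -0.62 to 0.53 for Orc2, -0.05 to 0.50 for Pola1, -0.85 to 0.17 for Pold1, -0.20 to 0.43 for Pcna and -0.74 to 0.04 for E2f1. Letters A and B are shared by the groups, but differences between A and B correlated at 0.0176 across the 11563 genes of the same 4 libraries, and the letters are not shown to pair them. With the replicate block 38 genes were higher, the median was 0.52, and 0 genes passed. With 2 libraries per group, the median SE of 0.36 limits what can be detected.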
